A study of Homo sapiens with 18 samples.

Results

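HOX genes encode homeodomain transcription factors that specify position along the body axis and lie in 4 clusters, HOXA to HOXD. The 39 HOX genes among the 26485 genes of the deposited table were chosen by symbol (HOXA to HOXD followed by a number). No measured value entered that choice, but the family itself was put forward with earlier results of these libraries known, so its behaviour is given here as a description of the members. A mean of at least 10 normalized counts was asked of a gene before testing, and 13096 genes passed, 21 of them HOX genes. Another 15 HOX genes had a mean above 0 but under that minimum, and HOXA6, HOXB1 and HOXC12 had no read in any library.

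The data came from L3.6pl, an established human pancreatic cancer cell line called Par, and from GemR, 1 derivative of it that resists gemcitabine and was kept in 64 nM of the drug. Par received a control siRNA (siCont), and GemR received siCont or an siRNA against STIM1 (siSTIM1), each for 48 h. For the last 3 h, cells were given the DMSO vehicle or 500 nM thapsigargin, which blocks the SERCA pump and so drains calcium from the endoplasmic reticulum. This made 6 groups of 3 libraries: Par siCont, GemR siCont and GemR siSTIM1, each with vehicle and with thapsigargin. There was no siSTIM1 group in Par, and resistance, drug exposure and descent of a single derivative cannot be told apart.

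Within each cluster, the order of the genes along the chromosome follows the order in which they are used in the embryo. Genes at one end (low numbers) act in the head and neck region, and those at the other end (high numbers) act in the lower trunk, limbs and urogenital tract. Polycomb proteins keep clusters silent where they are not used, trithorax proteins keep them active, and retinoic acid induces them from the low-numbered end. Adult epithelia and carcinomas often keep a partial HOX pattern. In GENCODE 29 coordinates on GRCh38, cluster A lies on chromosome 7, while the members of cluster B span chromosome 17 from 48528526 to 48729178, cluster C chromosome 12 from 53938765 to 54056030, and cluster D chromosome 2 from 176092891 to 176190907.

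Libraries held 8922439 to 16519239 recovered reads, and all 18 pairs of libraries from the same group differed by more than sampling noise (chi-square per degree of freedom of 1.84 to 39.5). Pairs with replicate 1 of GemR siCont with vehicle had 30.3 and 39.5. Pairs with replicate 1 of GemR siSTIM1 with thapsigargin had 16.2 and 15.2, and the remaining pairs had at most 4.99. STIM1, the siRNA target, had 4976 to 6401 normalized counts in GemR siCont with vehicle and 356 to 401 in GemR siSTIM1 with vehicle, as the labels say. In Par with vehicle it had 444 to 481. The 7 epithelial markers were expressed in every group. Of the 9 fibroblast genes, COL3A1 and COL1A1 were high in Par (7156 to 7679 and 1925 to 2173 normalized counts with vehicle), while DCN and FAP were at 0 in all libraries. Of the 6 immune genes, CD68 had 71.2 to 173 over all libraries and the other 5, PTPRC among them, stayed under 10. Of the 5 endothelial genes, PECAM1 had 55.3 to 158 and CDH5 22.4 to 176, and the other 3 stayed under 10. The labels give replicate numbers but not separate cultures, so p-values measure the spread between these libraries. In a bulk sample, fewer cells that express a gene and less RNA per cell cannot be told apart.

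Thapsigargin lowered most measurable HOX genes in Par within 3 h, while HOXB9 and HOXD1 rose. The largest falls were at the high-numbered end of clusters A and C. RefSeq start windows (GRCh38.p14, 250 bases before to 50 after the start) were at hand for 20 of the 39 members and for 6 of the 21 tested ones: HOXA3, HOXA10, HOXA11, HOXA13, HOXD1 and HOXD8. The 5 windows printed here belong to 3 genes that fell in Par and to 1 that rose, so that members with opposite changes can be read side by side. They are HOXA10 (2 starts, at chr7:27179812-27180111 and chr7:27174271-27174570, minus strand), HOXA11 (chr7:27185183-27185482, minus strand), HOXA13 (chr7:27200042-27200341, minus strand) and HOXD1 (chr2:176188418-176188717, plus strand). Capitals mark, on either strand, the 4 motifs whose letters are given after the sequences.
HOXA10 upstream start: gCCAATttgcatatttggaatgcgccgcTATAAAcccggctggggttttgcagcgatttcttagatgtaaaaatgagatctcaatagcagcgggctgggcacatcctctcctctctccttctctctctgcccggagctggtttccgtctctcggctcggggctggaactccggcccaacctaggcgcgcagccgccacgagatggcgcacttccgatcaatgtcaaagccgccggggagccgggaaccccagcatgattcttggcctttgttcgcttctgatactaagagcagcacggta
HOXA10 downstream start: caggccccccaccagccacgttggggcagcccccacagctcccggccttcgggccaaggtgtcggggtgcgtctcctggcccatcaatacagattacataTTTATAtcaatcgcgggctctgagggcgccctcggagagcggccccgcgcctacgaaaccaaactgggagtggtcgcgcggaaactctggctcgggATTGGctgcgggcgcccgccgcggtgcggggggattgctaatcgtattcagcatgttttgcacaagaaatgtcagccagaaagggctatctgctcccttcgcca
HOXA11: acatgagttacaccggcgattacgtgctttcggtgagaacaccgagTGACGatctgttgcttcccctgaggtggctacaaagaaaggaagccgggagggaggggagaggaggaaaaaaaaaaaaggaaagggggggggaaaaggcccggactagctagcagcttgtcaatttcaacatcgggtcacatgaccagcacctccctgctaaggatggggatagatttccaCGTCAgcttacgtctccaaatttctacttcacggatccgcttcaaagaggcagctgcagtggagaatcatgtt
HOXA13: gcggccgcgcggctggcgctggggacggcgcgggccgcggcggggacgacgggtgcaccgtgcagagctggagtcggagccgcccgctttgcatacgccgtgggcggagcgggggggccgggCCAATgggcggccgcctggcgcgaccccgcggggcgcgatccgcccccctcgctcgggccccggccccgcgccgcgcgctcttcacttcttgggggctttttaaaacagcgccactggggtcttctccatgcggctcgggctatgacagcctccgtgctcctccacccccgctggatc
HOXD1: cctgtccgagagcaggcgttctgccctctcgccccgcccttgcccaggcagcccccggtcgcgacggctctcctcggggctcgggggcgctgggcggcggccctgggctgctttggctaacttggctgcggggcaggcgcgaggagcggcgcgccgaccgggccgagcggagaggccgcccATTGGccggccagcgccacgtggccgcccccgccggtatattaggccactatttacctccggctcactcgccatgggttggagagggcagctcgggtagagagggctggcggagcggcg

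Each motif was searched on both strands, and no one of the 4 letter strings is contained in another. CCAAT, the core of the NF-Y box, was in 17 of 26 distinct HOX windows and in 34.6% of all 34943 windows. TATAAA was in 5 HOX windows and in 11.6% of all, and TGACG, a core of the cyclic AMP response element, was in 8 and in 24.5%. TGATGNAA, the core bound by ATF4, was in 1 HOX window, 1 of the HOXA3 starts, and in 3.62% of all. Of the 13 windows of tested HOX genes, 5 held the NF-Y core, so most of the 17 windows with it belong to untested members. Further motifs were searched but not marked. The NFAT core was in 6 HOX windows and in 24.1% of all, and the GC box in 13 and in 44.9%. The E box was in 9 HOX windows, 2 of them among the 13 of tested genes, and in 7.23% of all. Several windows belong to the same gene, HOXA3 alone having 7, so these counts describe windows and not independent genes. HOX windows had a median of 22.5 CpG dinucleotides against 14 over all windows.

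Levels per kb of merged exon allow genes to be set side by side. In Par with vehicle, HOXB7 had the highest level, 259 ± 29.2 normalized counts per kb (SD, n = 3). HOXC10 (84.2 ± 10.4) and HOXA11 (82.5 ± 6.9) came next and lay within their spread of each other. HOXB9 (44.1 ± 7.97) and HOXA10 (43.4 ± 0.894) followed, also within their spread, then HOXB2 (38.8 ± 5.34) and HOXC9 (35.7 ± 3.19). This middle order turned with the longest transcript as length, which put HOXA10 (63.4 ± 1.30) and HOXB2 (58.0 ± 7.98) above HOXB9 (44.1 ± 7.97), and HOXD8 (45.4 ± 1.30) above HOXC9 (39.5 ± 3.53). The lowest tested members there were HOXB8 (9.92 ± 1.77) and HOXC11 (8.14 ± 2.64). Over all libraries HOXB7 stood at percentile 75 of the tested genes per kb and HOXC11 at percentile 11.1, so the family lay mostly in the lower part of the expressed range. The untested members nearest the minimum were HOXA2, with a mean of 9.22 normalized counts, HOXC4 with 8.09 and HOXC8 with 6.92; the lowest tested was HOXB8 with 23.8. For the 3 members with no read, 3 reads, the limit that a count of 0 allows, would be 0.336 CPM in the smallest library.

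**Figure D1:**
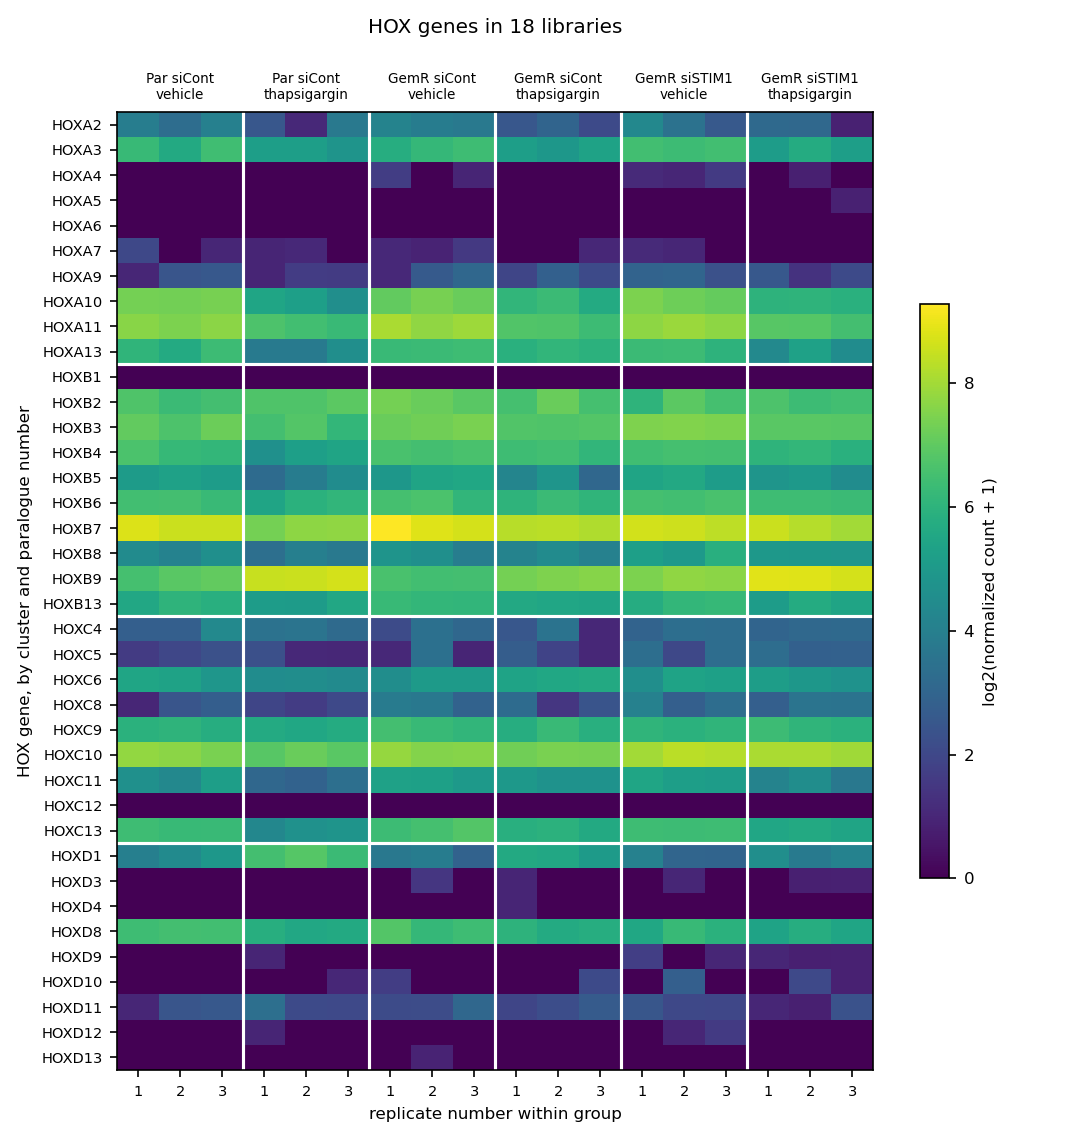
Log2(normalized count + 1) of 38 HOX genes (rows, by cluster and number) in the 18 libraries (columns, by group and replicate). HOXB7 was the brightest row in Par with vehicle, HOXB9 and HOXD1 brighten with thapsigargin in Par, and most of cluster D is near 0.

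Cluster B carried the largest part of the summed level per kb, 52.8% ± 1.25 in Par with vehicle (SD, n = 3), against 21.2% ± 1.71 for A, 20.7% ± 1.18 for C and 5.32% ± 0.769 for D. The sum for cluster A was 183 ± 19.6 normalized counts per kb in Par with vehicle and 75.9 ± 7.62 with thapsigargin. In GemR siCont it was 243 to 257 over the vehicle libraries and 131 ± 8.90 with thapsigargin, and in GemR siSTIM1 231 ± 18.8 and 112 ± 16.3. No thapsigargin library reached the lowest vehicle library of its own cell state. The sum for cluster B moved less: 456 ± 30.0 and 389 ± 41.7 in Par, 549 ± 83.7 and 408 ± 28.5 in GemR siCont, and 499.7 ± 22.7 and 519 ± 55.1 in GemR siSTIM1. Cluster D went from 45.8 ± 5.18 to 69.9 ± 8.05 in Par. Of its 2 tested members, HOXD1 rose and HOXD8 fell with thapsigargin there. In HOXD1, 58.1% of the exon bases are shared with other genes. These sums are descriptions and were not tested.

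**Figure D2:**
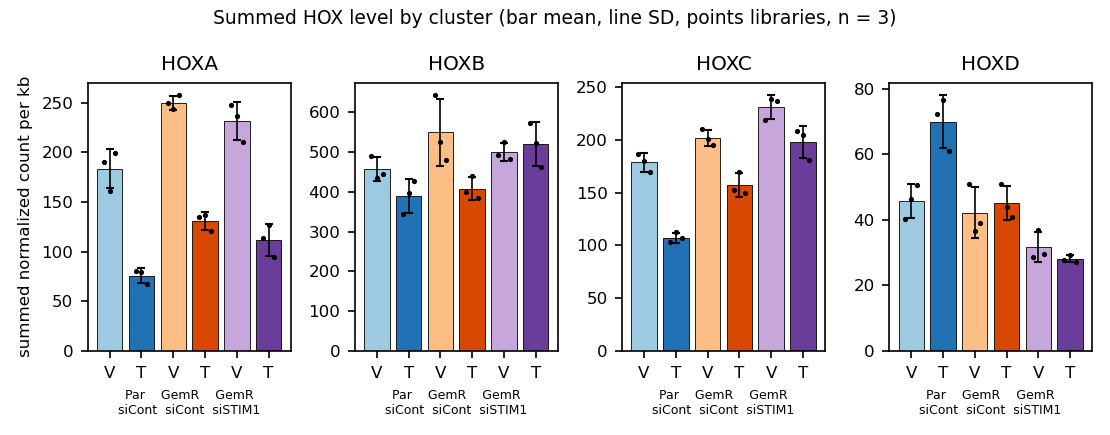
Summed normalized count per kb (y axis, from 0) of clusters A to D in the 6 groups; bars are means, lines SD, points the 3 libraries, V vehicle and T thapsigargin. Cluster A was lower with thapsigargin in all 3 cell states, while cluster B in GemR siSTIM1 was about level. Cluster B includes HOXB9, which rose in all 3 cell states.

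In Par, 16 of the 21 tested HOX genes fell with thapsigargin, where 19.7% of all tested genes fell, and 2 rose, where 20.5% of all rose (limma, adjusted p under 0.05). The members' median log2 fold change was -0.72, against -0.02 over all tested genes. In cluster B 6 of 9 tested members fell, in C 4 of 5 and in D 1 of 2. In GemR siCont, 9 fell (15.8% of all genes) and 3 rose (17.9%), with a median of -0.39. In GemR siSTIM1, 9 fell (11.9%) and 1 rose (12.5%), with a median of -0.47. HOXA3, HOXA10, HOXA11, HOXB3, HOXB13 and HOXC13 fell in all 3 cell states, which 5.21% of all genes did, and HOXB9 rose in all 3, which 7.8% did. The authors' deposited table for Par lists 15 of these 21 genes lower and 2 higher at an adjusted p under 0.05. Log2 fold changes are of normalized count + 1, which understates the change of low genes, with standard errors of limma's fit after ± and adjusted p-values from limma.

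**Figure D3:**
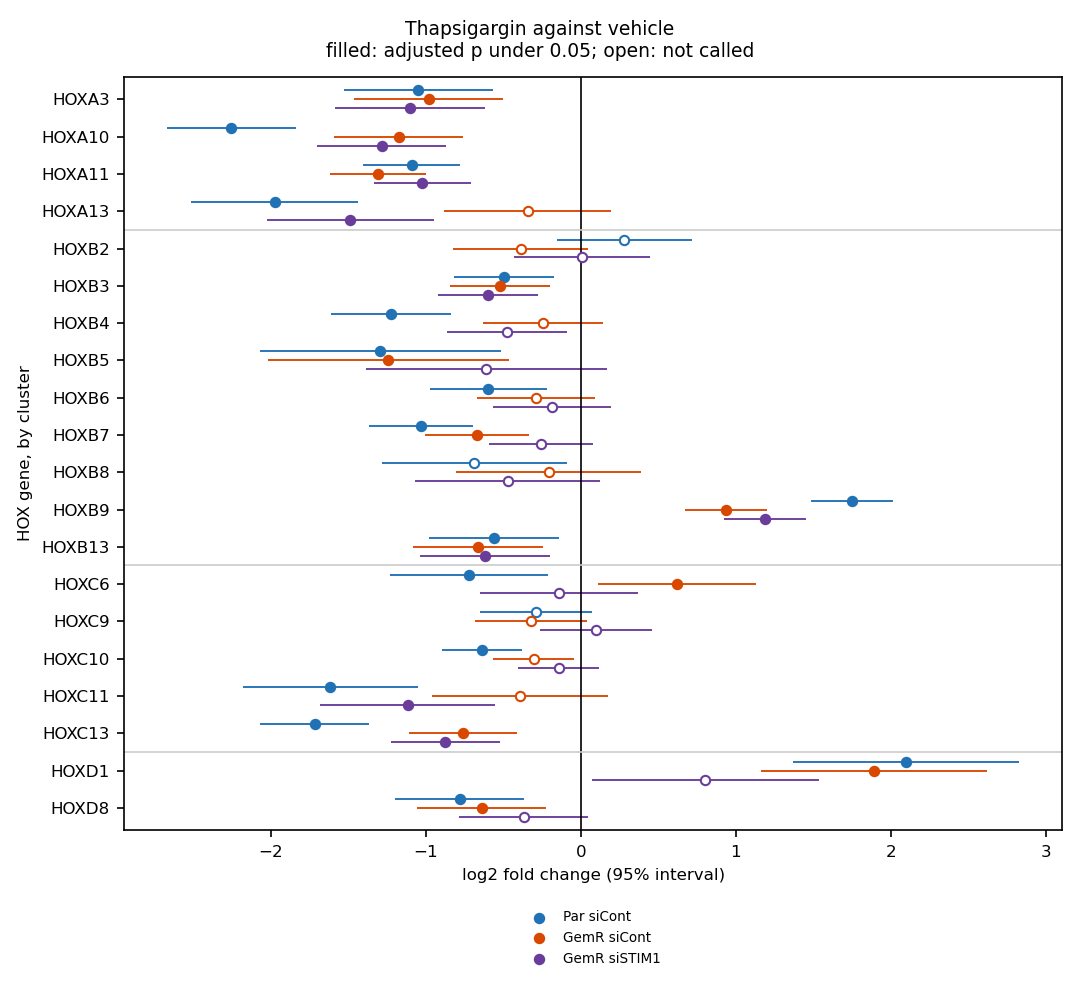
Log2 fold change, thapsigargin against vehicle (x axis, with 95% intervals), of 20 tested HOX genes in Par siCont, GemR siCont and GemR siSTIM1; filled points passed the test. Most points lie left of 0, and HOXB9 and HOXD1 lie right of it in all 3 cell states, with the HOXD1 point of GemR siSTIM1 open.

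HOXA10, needed for the lumbar spine and for the uterus to receive an embryo, showed the largest fall in Par. It lies on chromosome 7 from 27170591 to 27180261, and 26.3% of its exon bases are shared with other genes, HOXA10-AS among them. Its normalized counts in Par were 159, 159 and 165 with vehicle and 42.5, 36.7 and 22.9 with thapsigargin. In GemR siCont they were 133, 166 and 143 with vehicle and 67.7, 78.4 and 50.4 with thapsigargin. In GemR siSTIM1 they were 174, 149 and 136 with vehicle and 62.3, 64.9 and 58.8 with thapsigargin. Thapsigargin libraries lay below vehicle libraries in each cell state without overlap, and furthest below in Par. The log2 fold changes were -2.25 ± 0.19 (adjusted p = 1.50e-08) in Par, -1.17 ± 0.19 (adjusted p = 7.23e-05) in GemR siCont and -1.28 ± 0.19 (adjusted p = 3.57e-05) in GemR siSTIM1.

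HOXA13, which patterns digits, hindgut and the urogenital tract, responded differently in Par and in GemR siCont. In Par its normalized counts were 67, 50.5 and 80.9 with vehicle and 13.2, 12.9 and 22.9 with thapsigargin. In GemR siCont they were 77.9, 78.8 and 82.4 with vehicle and 58.3, 67.8 and 62.1 with thapsigargin. In GemR siSTIM1 they were 79.7, 80.3 and 62.6 with vehicle and 19.8, 39.1 and 21.8 with thapsigargin. The treated GemR siCont libraries lay above all treated libraries of Par and of GemR siSTIM1. The log2 fold change was -1.97 ± 0.25 (adjusted p = 2.89e-06) in Par and -1.49 ± 0.25 (adjusted p = 1.31e-04) in GemR siSTIM1, where it fell, and -0.34 ± 0.25 (adjusted p = 0.303) in GemR siCont, where it was not called. In GemR siCont too, the treated libraries lay below the vehicle libraries without overlap.

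HOXA11, a kidney, forelimb and uterus gene, fell in all 3 cell states. Its normalized counts in Par were 197, 172 and 202 with vehicle and 102, 88.5 and 76.9 with thapsigargin. In GemR siCont they were 275, 212 and 244 with vehicle and 108, 105 and 81.4 with thapsigargin. With siSTIM1 in GemR, the values were 209, 234 and 206 with vehicle and 116, 113 and 90.3 with thapsigargin. No thapsigargin library reached a vehicle library, and the log2 fold changes were -1.09 ± 0.14 (adjusted p = 5.04e-06), -1.31 ± 0.14 (adjusted p = 5.48e-07) and -1.02 ± 0.14 (adjusted p = 1.79e-05). HOXA11-AS, an antisense RNA that covers 31.1% of its exon bases, was not called with thapsigargin (-0.45, -0.01 and -0.23).

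HOXC13, which controls hair and nail keratins, fell in all 3. Its normalized counts in Par were 83.2, 75.7 and 78 with vehicle and 18.9, 24.8 and 27 with thapsigargin. In GemR siCont they were 81.3, 92.8 and 111 with vehicle and 57.3, 60.8 and 48.2 with thapsigargin. With siSTIM1 in GemR, the values were 83.1, 81.3 and 84.4 with vehicle and 43.5, 49.3 and 41.9 with thapsigargin. The groups did not overlap, and Par had the lowest treated libraries, with log2 fold changes of -1.72 ± 0.16 (adjusted p = 6.04e-08), -0.76 ± 0.16 (adjusted p = 0.00103) and -0.87 ± 0.16 (adjusted p = 3.78e-04). HOXC11, in the same cluster, rested on few reads, 6 to 43 per library. Its normalized counts were 24.4, 19.3 and 36.1 in Par with vehicle and 7.55, 6.47 and 9.36 with thapsigargin. They were 39, 37.7 and 31.3 with vehicle and 30.1, 25.5 and 25.7 with thapsigargin in GemR siCont, and 43.2, 35.6 and 33.8 with vehicle and 16.8, 22.7 and 12.1 with thapsigargin in GemR siSTIM1. HOXC11 fell in Par (-1.62 ± 0.26, adjusted p = 5.50e-05) and GemR siSTIM1 (-1.12 ± 0.26, adjusted p = 0.00309) and was -0.39 ± 0.26 (adjusted p = 0.26) in GemR siCont.

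HOXC10, a gene of the lumbar segment and hindlimb, had 217, 202 and 169.7 normalized counts in Par with vehicle and 115, 142 and 119.6 with thapsigargin. In GemR siCont it had 223, 188 and 194 with vehicle and 155, 168 and 165 with thapsigargin. In GemR siSTIM1 it had 253, 322 and 299.9 with vehicle and 271, 273 and 245 with thapsigargin. It fell in Par (-0.64 ± 0.12, adjusted p = 2.70e-04), while in GemR siCont and siSTIM1 the change was -0.30 and -0.14 and was not called. HOXB13, a marker of prostate and distal colon, fell in all 3, with log2 fold changes of -0.56, -0.66 and -0.62. Its normalized counts were 46.7, 65.3 and 57.5 in Par with vehicle and 34, 33.5 and 46.8 with thapsigargin, where 1 thapsigargin library overlapped the vehicle libraries. They were 75.7, 70.1 and 67.2 with vehicle and 47.9, 44 and 41.8 with thapsigargin in GemR siCont. In GemR siSTIM1 they were 52.3, 70.1 and 73.5 with vehicle and 33.6, 51.6 and 41.9 with thapsigargin, without overlap. The GemR siSTIM1 call was lost under 9 of 17 alternatives (adjusted p up to 0.126), and the Par call under 5. The libraries whose removal ended the first were GemR siSTIM1 vehicle replicates 2 and 3 and thapsigargin replicates 1 and 3, and for Par they were vehicle replicates 2 and 3 and thapsigargin replicates 1 and 2 (adjusted p up to 0.109).

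HOXB9, a thoracic gene that is often raised in carcinomas, rose where HOXB7, in the same cluster, fell or was not called. It lies on chromosome 17 from 48621159 to 48626356, and none of its exon bases are shared with another gene. In Par its normalized counts were 91.4, 119 and 132 with vehicle and 365, 373 and 405 with thapsigargin. In GemR siCont they were 96.9, 86.7 and 90.9 with vehicle and 161, 177 and 191 with thapsigargin. In GemR siSTIM1 they were 175, 211 and 202 with vehicle and 470.5, 458 and 415 with thapsigargin. Every thapsigargin library exceeded every vehicle library of its cell state. The log2 fold changes were 1.75 ± 0.12 (adjusted p = 9.55e-10) in Par, 0.94 ± 0.12 (adjusted p = 5.45e-06) in GemR siCont and 1.19 ± 0.12 (adjusted p = 3.21e-07) in GemR siSTIM1.

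HOXD1, a gene of the low-numbered end with a role in sensory neurons, also rose. Its normalized counts in Par were 15.2, 20.8 and 29.3 with vehicle and 89.7, 113 and 80.1 with thapsigargin, from 7 to 105 reads over all libraries. In GemR siCont they were 12.2, 14 and 6.63 with vehicle and 48.9, 45.8 and 32.1 with thapsigargin. With siSTIM1 in GemR, the values were 15.9, 7.12 and 6.95 with vehicle and 22.7, 13.3 and 16.1 with thapsigargin, and these 2 groups overlapped. It rose by 2.10 ± 0.34 (adjusted p = 5.23e-05) in Par and 1.89 ± 0.34 (adjusted p = 1.87e-04) in GemR siCont, and was 0.80 ± 0.34 (adjusted p = 0.092) in GemR siSTIM1. HAGLR, an antisense RNA, shares exons with HOXD1, 58.1% of whose exon bases are also in other genes. Library kits of the kind used here do not mark strand, and the strand setting of the counting is not given. Reads in the shared bases therefore cannot be assigned with certainty. HAGLR was 0.37 with thapsigargin in Par, not called, and rose by 0.61 and 0.73 in GemR siCont and siSTIM1.

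Among the central genes, HOXB7, often overexpressed in carcinomas, had 447, 368 and 371 normalized counts in Par with vehicle and 161, 206 and 215 with thapsigargin. In GemR siCont it had 621, 451 and 413 with vehicle and 313, 316 and 289 with thapsigargin, and in GemR siSTIM1 397, 380.2 and 327 with vehicle and 372, 306 and 253 with thapsigargin. It fell in Par (-1.03 ± 0.15, adjusted p = 2.51e-05) and GemR siCont (-0.67 ± 0.15, adjusted p = 0.00213), and the siSTIM1 groups overlapped. HOXB4, which expands blood stem cells when overexpressed, had 98.5, 72.7 and 70.2 in Par with vehicle and 24.6, 36.7 and 41.6 with thapsigargin. It had 96.9, 89.3 and 96.6 with vehicle and 83.7, 87.2 and 68.6 with thapsigargin in GemR siCont, and 86.5, 92.5 and 89.4 with vehicle and 65.2, 69.6 and 58 with thapsigargin in GemR siSTIM1. Its fall was called in Par (-1.22 ± 0.18, adjusted p = 1.78e-05) and not in the GemR groups. HOXB6 had 88.3, 89.1 and 77 with vehicle and 41.6, 60.4 and 68.6 with thapsigargin in Par, 92.4, 99.8 and 67.2 with vehicle and 63.9, 79.3 and 66.4 with thapsigargin in GemR siCont, and 93.3, 88.4 and 98.3 with vehicle and 83, 82.9 and 79.8 with thapsigargin in GemR siSTIM1. It fell in Par (-0.60 ± 0.17, adjusted p = 0.0102), and 32.9% of its exon bases are shared with HOXB3 and HOXB-AS3. Without Par siCont thapsigargin replicate 1 it was not called (adjusted p = 0.0846).

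HOXB5, active in enteric neurons, was low, with 7 to 48 reads per library. Its normalized counts were 33.5, 38.6 and 34.1 with vehicle and 8.5, 14 and 21.8 with thapsigargin in Par, 29, 42 and 45.5 with vehicle and 17.9, 27.3 and 7.5 with thapsigargin in GemR siCont, and 42.1, 47.8 and 33.8 with vehicle and 27.7, 30.5 and 21.8 with thapsigargin in GemR siSTIM1. It fell in Par (-1.29 ± 0.36, adjusted p = 0.00705) and GemR siCont (-1.24 ± 0.36, adjusted p = 0.0111). The Par call was lost without Par siCont thapsigargin replicate 1 (adjusted p = 0.0543), and the GemR siCont call without GemR siCont thapsigargin replicate 3 (adjusted p = 0.0899) and with only the libraries compared. HOXC6 had 42.6, 40.1 and 28.3 with vehicle and 21.7, 22.7 and 20.8 with thapsigargin in Par, 22.3, 32.4 and 32.2 with vehicle and 40.4, 44.9 and 48.2 with thapsigargin in GemR siCont, and 22.8, 40.7 and 37.7 with vehicle and 34.6, 28.9 and 25.8 with thapsigargin in GemR siSTIM1. It fell in Par (-0.72 ± 0.23, adjusted p = 0.0187) and rose in GemR siCont (0.62 ± 0.23, adjusted p = 0.0472), a rise lost under 11 of 16 alternatives (adjusted p up to 0.206). Its fall in Par was not called without Par siCont vehicle replicate 1 (adjusted p = 0.0833) or replicate 2 (adjusted p = 0.0632), or without Par siCont thapsigargin replicate 3 (adjusted p = 0.0519). HOXD8 had 84.3, 89.1 and 87.8 with vehicle and 55.7, 46.4 and 48.9 with thapsigargin in Par, 111, 70.9 and 84.3 with vehicle and 63, 50.2 and 54.6 with thapsigargin in GemR siCont, and 45.5, 75.2 and 59.6 with vehicle and 40.5, 54 and 42.7 with thapsigargin in GemR siSTIM1. It fell in Par (-0.78 ± 0.19, adjusted p = 0.0028) and GemR siCont (-0.64 ± 0.19, adjusted p = 0.0136), the latter call being lost without GemR siCont vehicle replicate 1 (adjusted p = 0.0841) or thapsigargin replicate 2 (adjusted p = 0.0585).

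At the low-numbered end, HOXA3, needed for thymus and parathyroid, had 76.1, 49 and 85.8 normalized counts in Par with vehicle and 35.9, 35.6 and 27 with thapsigargin. It had 54.6, 71.8 and 84.3 with vehicle and 35.7, 29.1 and 39.6 with thapsigargin in GemR siCont, and 88.8, 82.3 and 87.4 with vehicle and 33.6, 50.9 and 36.3 with thapsigargin in GemR siSTIM1. Its groups did not overlap, and it fell in all 3, with log2 fold changes of -1.05, -0.98 and -1.10. HOXB3 had 132, 101 and 147 with vehicle and 90.7, 110.1 and 69.7 with thapsigargin in Par, 144, 153 and 169 with vehicle and 107, 105 and 110.4 with thapsigargin in GemR siCont, and 179.8, 184 and 175 with vehicle and 119.6, 119 and 116 with thapsigargin in GemR siSTIM1. Its log2 fold changes, all called, were -0.49, -0.52 and -0.60, and its groups overlapped in Par, where it was not called without vehicle replicate 3 (adjusted p = 0.0734) or thapsigargin replicate 3 (adjusted p = 0.0909). In the limma fit to all 18 libraries, HOXB2, HOXB8 and HOXC9 were called with thapsigargin in no cell state. HOXB8 lay just over the limit in Par (-0.69, adjusted p = 0.0531). Exon bases shared with other genes made up 17.9% of HOXA3 (partly HOXA-AS2), 17.1% of HOXB4, 15.7% of HOXC6 and 13.2% of HOXB3, and reads there cannot be assigned with certainty.

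**Figure D4:**
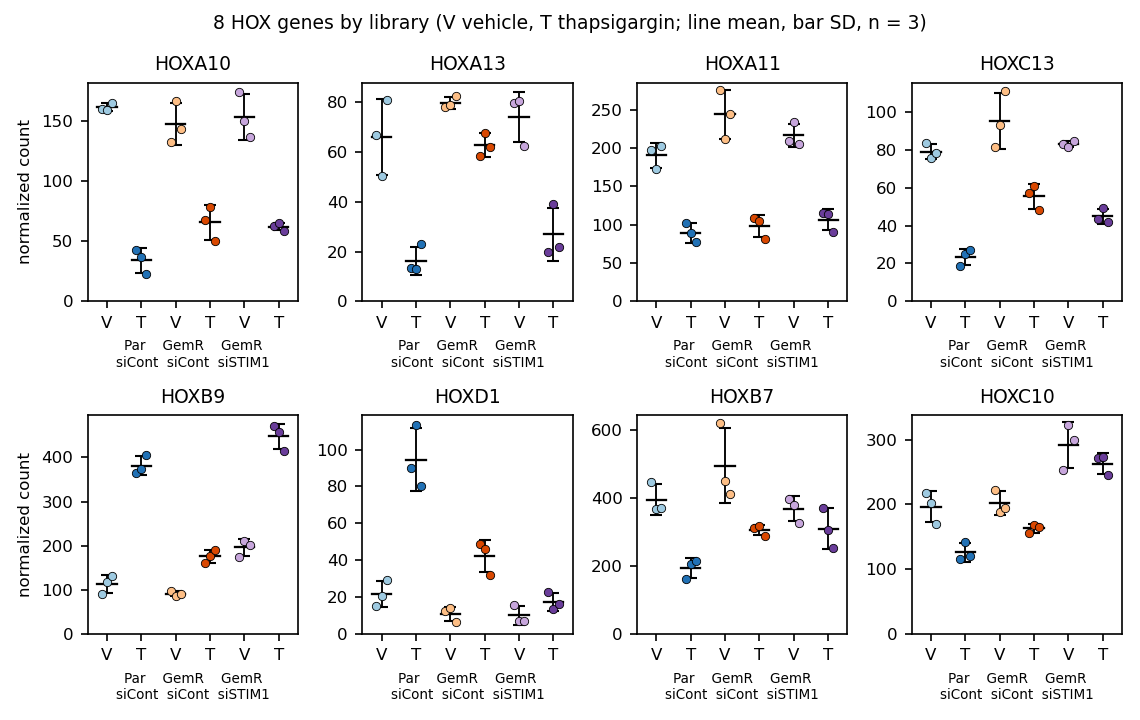
Normalized count per library (y axis, from 0) of 8 HOX genes in the 6 groups; line mean, bar SD, n = 3, V vehicle and T thapsigargin. HOXA10, HOXA11 and HOXC13 sit lower with thapsigargin in each cell state, and HOXB9 sits higher. With thapsigargin, HOXA13 sits higher in GemR siCont than in Par or GemR siSTIM1.

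The GemR siCont and Par responses to thapsigargin were compared as a difference of log2 fold changes. It was higher in GemR for 6 members, where 7.14% of all genes were, and lower for 1, where 7.66% were. The 6 were HOXA13 (1.63 ± 0.35, adjusted p = 0.00296), HOXC6 (1.34 ± 0.33, adjusted p = 0.0084), HOXC11 (1.22 ± 0.37, adjusted p = 0.0287), HOXA10 (1.08 ± 0.27, adjusted p = 0.00923), HOXB4 (0.98 ± 0.25, adjusted p = 0.0111) and HOXC13 (0.96 ± 0.23, adjusted p = 0.0066). All but HOXC6 were lower with thapsigargin in Par and less so in GemR siCont. HOXB9 was the 1 lower (-0.81 ± 0.17, adjusted p = 0.00276), its rise being smaller in GemR siCont. Between siSTIM1 and siCont in GemR, the thapsigargin responses differed for 0 members by limma, 0 by edgeR and 1 by DESeq2, HOXA13, where 1.5% of all genes were higher and 2.9% lower by limma. Of the 21, 3 had an unadjusted p under 0.05. HOXA13 was -1.14 ± 0.35 (adjusted p = 0.0692) by limma, and its adjusted p was 0.0185 by DESeq2. By limma without GemR siSTIM1 thapsigargin replicate 2 it was 0.0171. The edgeR and DESeq2 fits lacked GemR siSTIM1 vehicle replicate 3.

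With vehicle, few HOX genes were called between GemR siCont and Par. Of the 21, 2 were higher (18.1% of all genes) and 1 lower (20.1%), with a median of 0.24 against 0.00 over all genes. HOXA11 (0.35, limma adjusted p = 0.0601) and HOXB9 (-0.30, limma adjusted p = 0.0607) lay just over the limit. HOXA11 was called by edgeR (adjusted p = 0.0470) and DESeq2 (adjusted p = 0.0474), and HOXB9 without Par siCont vehicle replicate 1 (adjusted p = 0.00576). HOXB2, a hindbrain gene, had 104, 78.7 and 89.7 normalized counts in Par and 159, 143 and 120.3 in GemR siCont with vehicle, and was higher in GemR (0.63 ± 0.20, adjusted p = 0.0183). With thapsigargin it had 105, 104 and 122 in Par and 92.1, 141 and 93.2 in GemR siCont, which overlapped. HOXD1 was lower in GemR (-0.94 ± 0.34, adjusted p = 0.033), as was HAGLR (-0.63). HOXB2 was not called without Par siCont vehicle replicate 2 (adjusted p = 0.0785) or GemR siCont vehicle replicate 1 (adjusted p = 0.0532). HOXD1 was lost under 5 of 16 alternatives: no minimum mean, only the libraries compared, and without Par siCont vehicle replicate 2, Par siCont vehicle replicate 3 or GemR siCont vehicle replicate 3 (adjusted p up to 0.155).

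With thapsigargin, GemR siCont had 9 members higher than Par (23.2% of all genes) and 2 lower (25%), with a median of 0.33. Among the higher ones were HOXA13 (1.92 ± 0.25), HOXC11 (1.69 ± 0.26), HOXB4 (1.22 ± 0.18), HOXC13 (1.21 ± 0.16), HOXC6 (1.00 ± 0.23), HOXA10 (0.95 ± 0.19), HOXB7 (0.67 ± 0.15) and HOXC10 (0.38 ± 0.12). HOXC10 was not called without Par siCont thapsigargin replicate 1 (adjusted p = 0.0659) or replicate 3 (adjusted p = 0.0512). The lower ones were HOXD1 (-1.15 ± 0.34) and HOXB9 (-1.11 ± 0.12). These comparisons share libraries with the responses above and are not separate evidence. Markers of cell identity differed between the cell states too. From Par to GemR siCont with vehicle, mean normalized counts of the epithelial genes went from 2113 to 523 for CLDN7, 6278 to 2700 for EPCAM, 205 to 83.9 for CDH1, 25228 to 14254 for KRT8 and 13631 to 8116 for KRT18, and from 20024 to 21963 for KRT19 and 38957 to 46164 for KRT7. Of the fibroblast genes, the 9 listed summed to 9338 to 9690 normalized counts in vehicle-treated Par and 1183 to 1420 in vehicle-treated GemR siCont, mostly COL3A1 and COL1A1, with DCN and FAP at 0. The part of these markers in the HOX differences was not tested.

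**Figure D5:**
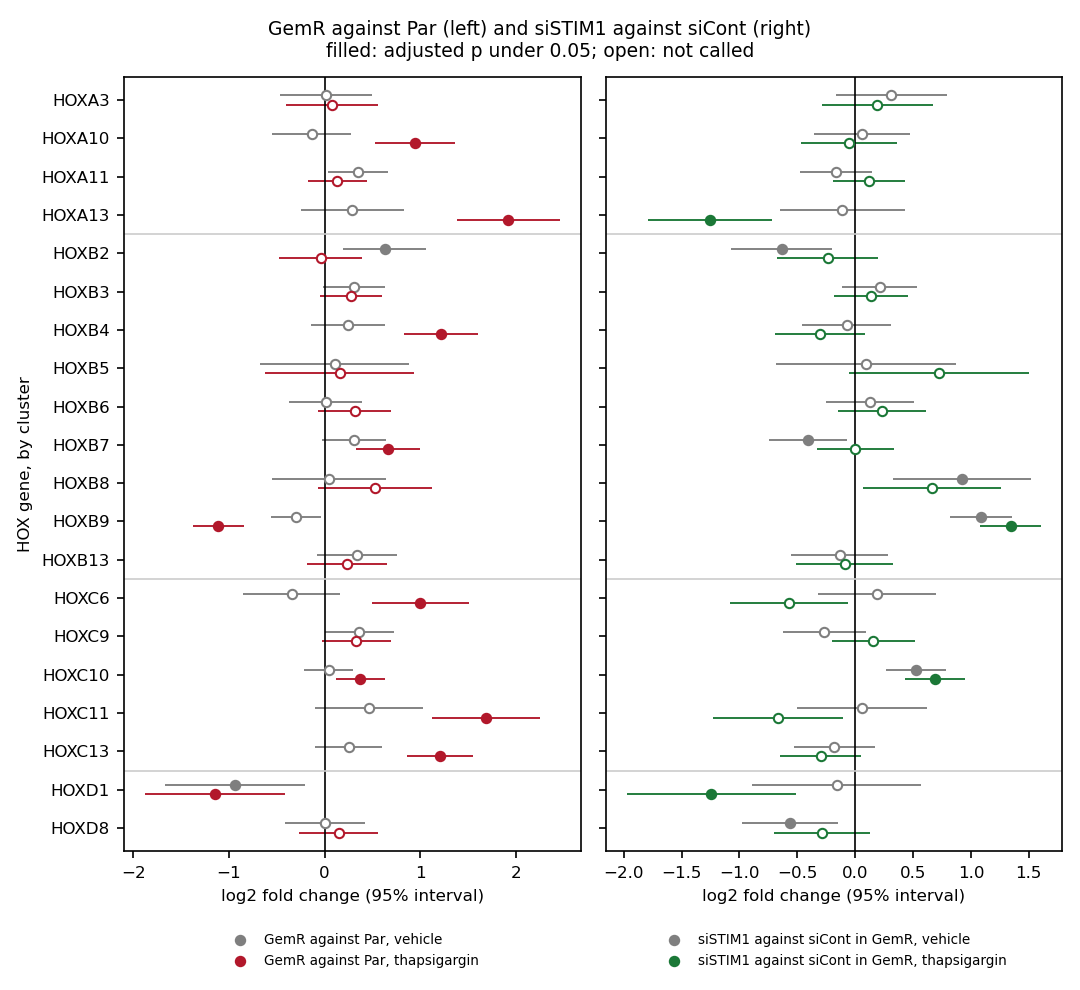
Log2 fold change (x axis, with 95% intervals) of 20 tested HOX genes for GemR siCont against Par (left) and siSTIM1 against siCont in GemR (right), with vehicle (grey) and with thapsigargin (red or green); filled points passed the test. HOXD1 is left of 0 on the left panel, and HOXB9 and HOXC10 are right of 0 on the right panel, under both treatments.

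In GemR, siSTIM1 with vehicle raised 3 members (20.9% of all genes rose) and lowered 3 (21.1%), with a median of -0.07. HOXB9, at 96.9, 86.7 and 90.9 in siCont and 175, 211 and 202 in siSTIM1 with vehicle, rose without overlap (1.09 ± 0.12, adjusted p = 1.32e-06), and HOXC10 rose (0.53 ± 0.12, adjusted p = 0.00179). HOXB8, a myeloid progenitor gene, had 26.7, 23.6 and 14.2 in siCont and 36.4, 31.5 and 57.6 in siSTIM1 with vehicle, and with thapsigargin 16.9, 21.1 and 16.1 in siCont and 29.7, 28.9 and 28.2 in siSTIM1. In Par it had 21.3, 16.3 and 23.4 with vehicle and 9.44, 15.1 and 12.5 with thapsigargin. HOXB8 was higher with siSTIM1 and vehicle (0.93 ± 0.27, adjusted p = 0.0112). HOXB2 was lower, with 64.9, 122 and 91.4 in siSTIM1 with vehicle and 102, 82.2 and 87.8 with thapsigargin (-0.63 ± 0.20, adjusted p = 0.0167), as were HOXB7 (-0.41 ± 0.15, adjusted p = 0.0394) and HOXD8 (-0.56 ± 0.19, adjusted p = 0.0241). The HOXB2 and HOXD8 groups overlapped. Of these 6, HOXB9 and HOXC10 were called under all alternatives, and the other 4 were lost under 4 to 8 of them (adjusted p up to 0.211). GemR siCont vehicle replicates 1 and 3 and GemR siSTIM1 vehicle replicates 1, 2 and 3 each ended at least 1 of these 4 calls when left out. With only the compared libraries, and with edgeR, the called genes were 2, both higher. DESeq2 called 3, 2 higher and 1 lower. Both edgeR and DESeq2 left out GemR siSTIM1 vehicle replicate 3, without which limma also called 3.

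With thapsigargin, siSTIM1 raised 2 members (17.7%) and lowered 3 (18.9%), with a median of -0.06. HOXB9 rose to 470.5, 458 and 415, from 161, 177 and 191 in siCont (1.34 ± 0.12, adjusted p = 6.56e-08), and HOXC10 rose (0.69 ± 0.12, adjusted p = 1.49e-04). HOXA13 fell from 58.3, 67.8 and 62.1 to 19.8, 39.1 and 21.8 (-1.25 ± 0.25, adjusted p = 5.10e-04). HOXD1 fell as well (-1.25 ± 0.34, adjusted p = 0.00653). HAGLR fell with siSTIM1 under vehicle (-0.67) and thapsigargin (-0.55). HOXC9 was the single tested member with no call in any comparison of the limma fit to all 18 libraries. It ranged from 45.3 to 90.2 normalized counts over them. Without GemR siCont thapsigargin replicate 2, its fall with thapsigargin in GemR siCont was called (-0.48, adjusted p = 0.0456).

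Genes outside the clusters' coding members were read from lists of HOX antisense RNAs, flanking genes, cofactors and regulators. Over all tested genes, 18.1% were higher and 20.1% lower in GemR siCont than in Par with vehicle, and thapsigargin raised 20.5% and lowered 19.7% in Par. Of 7 tested antisense and noncoding RNAs, 2 were higher in GemR (28.6%) and 1 lower (14.3%). HOTAIRM1, antisense to the low-numbered end of cluster A, was higher (1.35 ± 0.16, adjusted p = 2.06e-06) and HAGLR lower. HOXC13-AS, the other higher one, averaged 4.97 normalized counts in Par and 18.9 in GemR siCont with vehicle and reached the minimum mean only through the GemR groups. Of 10 tested genes flanking the clusters, 7 were higher (70%) and 1 lower (10%), among them SKAP2 (0.87 ± 0.08), CBX5 (0.58 ± 0.11), CALCOCO1 (0.48 ± 0.09) and SMUG1 (0.47 ± 0.12). With thapsigargin in Par, 1 of the 10 rose, CALCOCO2 (0.94 ± 0.07, adjusted p = 9.33e-10), and 1 fell, SMUG1 (-0.51 ± 0.12, adjusted p = 0.00231), with a list median of -0.04. Of the 7 noncoding RNAs, 3 fell in Par (42.9%): HOTAIRM1 (-0.47 ± 0.16, adjusted p = 0.0262), HOXB-AS3 (-1.30 ± 0.44, adjusted p = 0.0252) and HOXA-AS2. HOXB-AS3 averaged 13.8 normalized counts in Par with vehicle and 5.76 with thapsigargin, the latter under the minimum mean. HOXA-AS2 averaged 9.29 normalized counts in Par with vehicle and 2.68 with thapsigargin, both under the minimum mean, which it reached through the GemR groups.

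The list of TALE homeodomain genes held PBX, MEIS and PKNOX genes, partners that sharpen HOX binding to DNA, and also TGIF1 and TGIF2. Of this list, 9 members were tested. In GemR against Par with vehicle, 1 was higher (11.1%), PKNOX1 (0.32 ± 0.08), and 1 lower (11.1%), TGIF1 (-0.28 ± 0.08), beside 18.1% and 20.1% of all genes. In Par, thapsigargin raised 2 (22.2%, beside 20.5% of all genes), MEIS1 (0.68 ± 0.20) and TGIF1 (0.51 ± 0.08). It lowered 3 (33.3%, beside 19.7% of all genes), TGIF2 (-0.70 ± 0.09), PBX3 (-0.47 ± 0.13) and PBX2 (-0.22 ± 0.08). Of 31 Polycomb genes, 4 were higher (12.9%) and 7 lower (22.6%) in GemR, shares under and near those over all genes, among them PCGF5 (-0.91 ± 0.08), CBX7 (0.63 ± 0.08) and CBX2 (-0.50 ± 0.11). In Par, thapsigargin raised 6 of the 31 and lowered 6, 19.4% each way and near the shares over all genes, CBX2 falling most (-1.17 ± 0.11, adjusted p = 8.84e-08). Of 17 trithorax and demethylase genes, 3 were higher (17.6%) and 2 lower (11.8%) in GemR, near and under those shares, among them KMT2B (-1.03 ± 0.14), DOT1L (-0.37 ± 0.10), PSIP1 (0.24 ± 0.07) and ASH2L (0.17 ± 0.06). In Par, thapsigargin raised 3 (17.6%), among them the H3K27 demethylases KDM6B (1.51 ± 0.18, adjusted p = 1.17e-06) and KDM6A (0.83 ± 0.11, adjusted p = 4.20e-06), and lowered 3 (17.6%). Means that were lower with thapsigargin in Par included WDR5 (1968 to 1488 normalized counts), DPY30 (937 to 656.5) and MEN1 (1263 to 977).

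Of 11 tested genes of the retinoic acid list, 5 were higher (45.5%) and 2 lower (18.2%) in GemR siCont than in Par with vehicle, beside 18.1% and 20.1% of all genes. ALDH1A1, which makes retinoic acid, averaged 85.9 normalized counts in vehicle-treated Par and 0.979, about 1 read, in vehicle-treated GemR siCont. It reached the minimum mean only through the Par groups, so no fold is given. ALDH1A2, another such enzyme, averaged 69.5 and 418 (2.57 ± 0.14). ALDH1A3 was lower (-0.82 ± 0.07) and the receptor RARG higher (0.64 ± 0.07). With thapsigargin in Par, 1 rose (9.09%) and 3 fell (27.3%), beside 20.5% and 19.7% of all genes, RDH10, which makes retinaldehyde, falling most (-0.997 ± 0.075, adjusted p = 2.86e-09). Of the ParaHox and caudal genes only CDX2, an intestinal regulator, was tested: it was 0.21 ± 0.17 (adjusted p = 0.339) in GemR against Par with vehicle and fell with thapsigargin in all 3 cell states (-0.81, -0.51 and -0.77).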

How the data were processed

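The mRNA libraries were made with a TruSeq RNA kit, per the labels' protocols; kits of this kind do not mark strand. Per the submitters' processing notes, reads were mapped to hg38 with STAR 2.6.0c and counted with HTSeq 0.11.1; for the annotation and the strand setting the sources used here give nothing. The deposited tables hold normalized counts (a signal: reads divided by a size factor), made by the authors per the file headers; positive values were whole multiples of a step per library (100% within 0.01), giving recovered reads. The authors also deposited comparison tables with log2 fold changes and adjusted p-values, of which those for HOX genes were read.

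Log2(normalized count + 1) was fitted for the 13096 genes whose mean reached 10, with 1 mean per group over all 18 libraries (limma 3.58.1 with trend, R 4.3.3, 12 residual degrees of freedom). The 9 comparisons, 2 of which are differences between responses, were tested two-sided and adjusted by Benjamini and Hochberg over all 13096 genes. The members and lists were chosen with earlier results of these data known. Named genes are the members, and of other lists up to 4 called genes with the largest change in GemR against Par with vehicle; others named with thapsigargin were chosen after their values were seen. The alternatives were other pseudocounts (0.5, 5), minimum means (none, 50), scalings, fits without the groups not compared, a replicate block, each library left out, and edgeR 4.0.16 and DESeq2 1.42.0 on the reads of 17 libraries (the step of siSTIM1 vehicle replicate 3 lay too near 1 for a check). Leaving out 2 libraries together was added after seeing the data. Lengths and overlaps came from GENCODE 29, and start windows from RefSeq. The fit was tested on simulated data. Some genes are not reported here one by one, though counts, medians and cluster sums cover all members. Figures were drawn with Python 3.11.15, pandas 2.3.3, numpy 2.4.6 and matplotlib 3.10.9.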

Additional observations from a re-analysis of the deposited data

Results flagged for a closer look

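The thapsigargin response differed between GemR siCont and Par, by the test of the difference itself, for 7 HOX genes. The difference (GemR siCont minus Par, log2 scale) was 1.08 for HOXA10, 1.63 for HOXA13, 0.98 for HOXB4, 1.34 for HOXC6, 1.22 for HOXC11, 0.96 for HOXC13 and -0.81 for HOXB9. HOXC11 lost its call under 6 of 22 alternatives (adjusted p up to 0.091: no minimum mean, and without Par siCont vehicle replicate 3, Par siCont thapsigargin replicate 1 or 2, GemR siCont vehicle replicate 3 or GemR siCont thapsigargin replicate 1), and the other 6 under none. The causes were not tested.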

How the results depend on the processing

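Of 72 calls of a HOX gene in a comparison, 53 passed the test under every alternative run, 19 were lost under at least 1, and 0 changed direction. For GemR against Par with vehicle, leaving out 1 library gave 1 to 4 called HOX genes in place of 3. For siSTIM1 against siCont with vehicle, the 6 calls became 2 with only the libraries compared, 2 with edgeR and 3 with DESeq2, and 3 to 6 when 1 library was left out (3 without GemR siCont vehicle replicate 1 and 3 without GemR siSTIM1 vehicle replicate 3). Both edgeR and DESeq2 ran without GemR siSTIM1 vehicle replicate 3, so method and missing library cannot be told apart in these counts. For the difference between siSTIM1 and siCont responses, DESeq2, again without that library, called 1, and leaving out 1 library gave 0 to 1. The causes were not tested.

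Whether equal replicate numbers pair libraries was checked over 45 pairs of same-numbered libraries, whose deviations correlated from -0.18 to 0.49, 9 of them above 0.1. In no 2 groups compared directly were all 3 correlations above 0.1. GemR siCont with vehicle and GemR siSTIM1 with thapsigargin, which are not compared directly, correlated at 0.49, 0.14 and 0.29. With the replicate number as a block, called HOX genes numbered 4, 11, 6, 5, 18, 11, 10, 7 and 0, in the order GemR against Par (vehicle, thapsigargin), siSTIM1 against siCont (vehicle, thapsigargin), thapsigargin in Par, GemR siCont and GemR siSTIM1, and the 2 differences. Without the 2 libraries with the strongest negative trend on transcript length, replicate 1 of GemR siCont with vehicle and replicate 1 of GemR siSTIM1 with thapsigargin (rho -0.50 and -0.43 across 12419 genes), HOXB7 was also called in GemR siSTIM1 with thapsigargin (-0.40). Lost there were HOXB7 and HOXD8 for siSTIM1 with vehicle (adjusted p of 0.127 and 0.131), HOXC6 and HOXD8 for thapsigargin in GemR siCont (0.202 and 0.0752) and HOXB13 in GemR siSTIM1 (0.11). Taking the longest transcript as length moved 8 of 21 levels per kb by more than 1 SD and changed the order of the middle ones. Members under the minimum mean were not resolved at this depth: with no minimum, no further HOX gene was called.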
